A study of Mus musculus with 36 samples.

Results

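Digit I is the first ray of the mouse hand and foot. The regions described here are stretches of open chromatin that were called mainly in digit I when every peak list was limited to the same length, and there were 314 of them among 53827 merged regions (0.583%). They were chosen by peak calls in ATAC-seq, an assay in which a transposase cuts accessible DNA. The 36194 most significant peaks of each of 12 peak lists were merged wherever peaks shared at least 1 bp. A region was kept when at least 3 of the 4 digit I lists held a peak in it and at most 1 of the 8 lists of digits III and V did. The same calls cannot test the difference between digit I and the other digits, so that difference is described here without a test. The name digit I biased refers only to calls at that length. At that length 87 of the 314 regions had no call in digits III and V, and in the full lists 15 had no peak there.

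Each list came from pooled libraries of E15.5 chondrocytes, the cells of the cartilage skeleton, from FVB/NJ embryos, a wild-type inbred strain. The 12 groups of 3 libraries combined the forelimb or hindlimb, the metapodials (metacarpals or metatarsals) or the phalanges, and digit I, III or V. For digit I the phalanx libraries held the proximal and distal phalanx, and for digits III and V also the intermediate one. A library pooled both body sides of 3 to 5 littermates. The labels name no treatment or mutation. One list per group leaves no replicate error for a single list, so all spreads are between lists. The labels state an aim of at least 40000000 reads per library, and the depth reached is unknown.

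Digit I is the anterior-most digit and has 2 phalanges where the others have 3. In the limb bud it forms where Hedgehog signalling is lowest and where the repressor form of the transcription factor GLI3 is most abundant, and it is set apart from other digits by the near absence of some posterior HOXD proteins. In the cartilage itself, SOX9 maintains chondrocytes, while PTHrP, Indian hedgehog, WNT and BMP signals pace their maturation. Open regions away from promoters often mark enhancers, which act on genes at a distance.

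Among the 314 regions, 17 overlapped an annotated promoter window, which runs from 250 bases before to 50 after a transcription start. The starts are those of RefSeq, GRCm38.p6, which shares its coordinates with mm10. The 17 regions held 20 windows, 3 of them of the predicted gene Gm34022. How many of all merged regions overlap such a window was not counted, so 17 has no share beside it. Promoter sequence is shown for 5 of the 20 windows as examples picked after their values were seen. Tmed6 lacked other peaks, Gm34022 and Gm51785 lie in the Msx2 and Hmga2 regions, and Iho1 and Cmklr1 are starts of protein-coding genes without a motif match. The 250 bases before the start are printed in the direction of transcription. Tmed6 (chr8:107065645-107065894, minus strand) is a gene of the secretory pathway family, and its region had no peak in any list of digits III and V. Gm34022 (chr13:53533268-53533517, minus strand) is a predicted gene whose start lies in the region assigned to the homeobox gene Msx2, and Gm51785 (chr10:120450754-120451003, plus strand) is a predicted gene whose start lies in the region inside Hmga2, a chromatin protein of growing embryonic tissue. Iho1 (chr9:108431827-108432076, minus strand) encodes a meiotic protein and Cmklr1 (chr5:113643604-113643853, minus strand) the chemerin receptor. Capitals mark matches to any of 6 short motifs.

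Tmed6: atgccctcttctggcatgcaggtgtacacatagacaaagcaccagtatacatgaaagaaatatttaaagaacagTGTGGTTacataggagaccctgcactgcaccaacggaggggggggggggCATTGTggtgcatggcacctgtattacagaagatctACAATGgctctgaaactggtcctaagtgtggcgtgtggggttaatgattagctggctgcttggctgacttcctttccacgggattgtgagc
Gm34022: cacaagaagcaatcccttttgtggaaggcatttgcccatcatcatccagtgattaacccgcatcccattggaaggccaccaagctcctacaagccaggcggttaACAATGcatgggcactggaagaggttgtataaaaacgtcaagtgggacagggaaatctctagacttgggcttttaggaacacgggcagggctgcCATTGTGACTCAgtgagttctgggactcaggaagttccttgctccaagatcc
Gm51785: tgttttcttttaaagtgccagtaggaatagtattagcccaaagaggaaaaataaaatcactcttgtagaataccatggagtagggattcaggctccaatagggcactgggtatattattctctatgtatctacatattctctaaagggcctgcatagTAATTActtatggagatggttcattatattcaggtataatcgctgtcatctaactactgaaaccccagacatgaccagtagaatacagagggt
Iho1: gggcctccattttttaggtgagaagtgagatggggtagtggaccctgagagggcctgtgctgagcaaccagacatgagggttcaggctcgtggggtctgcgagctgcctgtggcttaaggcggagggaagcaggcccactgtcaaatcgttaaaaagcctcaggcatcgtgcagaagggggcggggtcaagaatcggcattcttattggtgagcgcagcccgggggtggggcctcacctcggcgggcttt
Cmklr1: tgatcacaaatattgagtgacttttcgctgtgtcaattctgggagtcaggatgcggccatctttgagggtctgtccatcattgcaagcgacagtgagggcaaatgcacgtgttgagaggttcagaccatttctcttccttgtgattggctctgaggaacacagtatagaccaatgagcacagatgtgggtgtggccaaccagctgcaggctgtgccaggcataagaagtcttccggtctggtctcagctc

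The motifs were searched on both strands and are common or rare by their letters alone. SOX factors are represented by ACAATG, found in 10.7% of all 32851 promoter sequences of the same length and in 4 of the 20 windows, which are Tmed6 and the 3 overlapping starts of Gm34022. The AP-1 letters TGANTCA were in 6.75% of all promoters and in the 3 Gm34022 windows, where a match overlapped a SOX match. The homeobox core TAATTA was in 4.84% of all and in the windows of Gm51785 and BC039771. RUNX letters TGTGGTT were in 4.4% of all promoters and in Tmed6 alone. Neither the GLI letters GACCACCCA (0.225% of all) nor the T-box letters AGGTGTG (5.1% of all) were in any of the 20 windows. A match of letters describes these sequences only.

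Most of the regions were seen in all but one of the digit I elements. Of the 314 regions, 276 were called in 3 digit I lists and 38 in all 4, and 6 were called in all 4 with no call elsewhere. A call in a single list of the other digits was usual, with 227 regions having 1 and 87 having none. Just outside the rule lay 334 regions in 3 digit I lists and 61 in all 4 with calls in 2 of the other 8 lists, and 524 regions in 2 digit I lists and no other. The rule took 4.06% of the 7736 regions that were called in 3 to 5 lists.

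The hand phalanges of digit I held 278 of the regions, the metacarpal 249, the foot phalanges 234 and the metatarsal 219. The 276 regions seen in 3 digit I lists missed the metatarsal most often (95), then the foot phalanges (80), the metacarpal (65) and the hand phalanges (36). Forelimb lists of digit I held 263.5 regions on average and hindlimb lists 226.5, and phalanx lists held 256 against 234 in metapodial lists. These calls chose the regions and have no test. In 309 regions the peaks of all calling digit I lists shared at least 1 base.

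**Figure D1:**
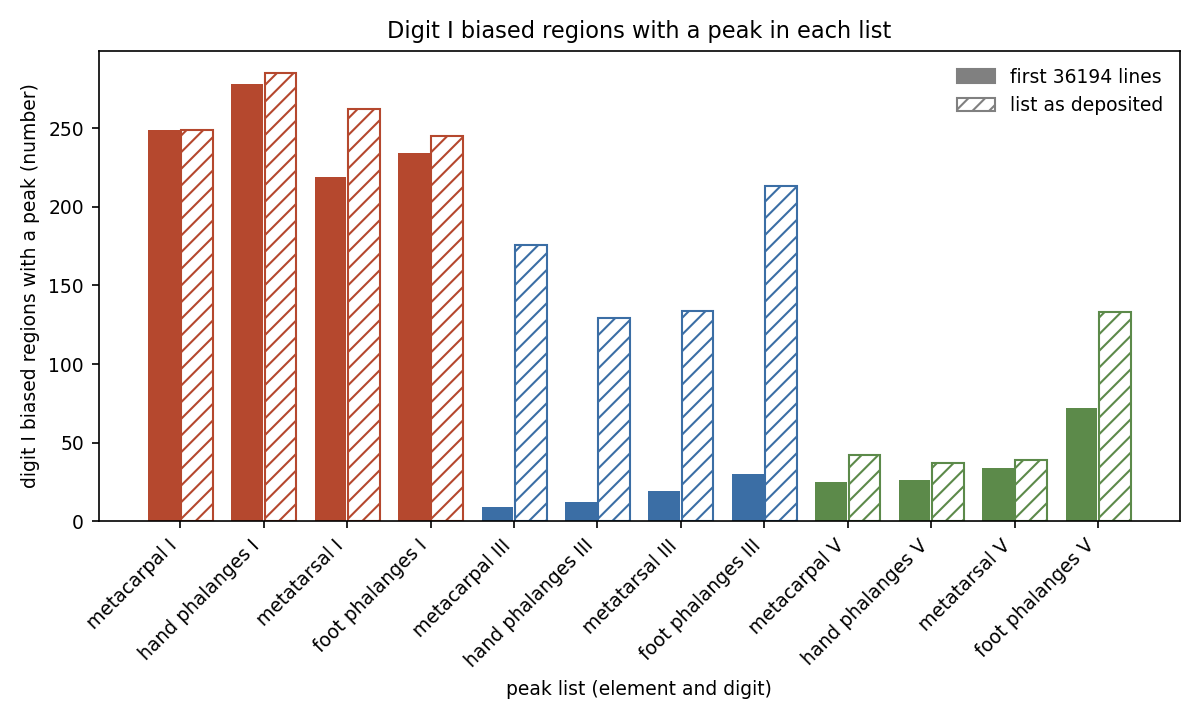
Bars give the number of the 314 digit I biased regions (y axis) with a peak in each of the 12 lists (x axis, coloured by digit), filled for the first 36194 lines and hatched for the list as deposited. The filled bars of digit III reach at most 30 and the hatched ones 129 to 213.

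All lists were ordered by significance, and the regions sat in their lower part. The mean line of a region's best peak in the calling digit I lists had a median of 30900 of 36194 and a range of 19500 to 35100. In the metacarpal I list 187 of the 249 called regions (75.1%) lay in the last 25% of the lines, and in the metatarsal I list 199 of 219 (90.9%). The authors' fold enrichment, a peak's height over local background, had a median of 8.479 at these regions in the metacarpal I list, against 15.62 over all its peaks used. In hand phalanges I the medians were 7.573 and 13.56, in metatarsal I 6.995 and 12.97, and in foot phalanges I 7.049 and 12.42. The regions were thus among the weaker peaks of each digit I list. This was shared with other regions of few lists. Taken over all calling lists, the median mean line was 31070 for the digit I biased regions and 30710 for all regions called in 3 to 5 lists, against 11490 for regions in all 12 lists.

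**Figure D2:**
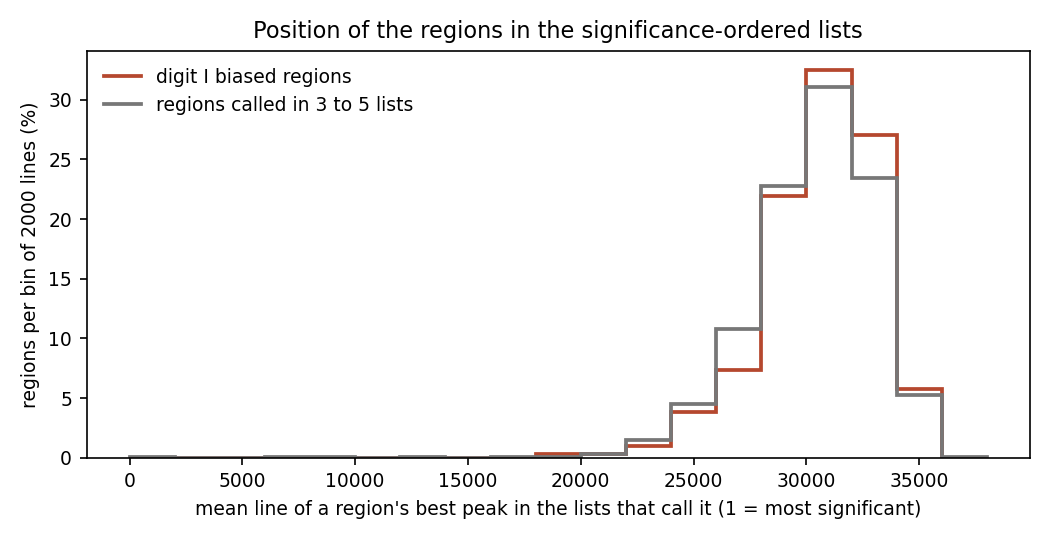
The x axis is the mean line of each region's best peak in the lists that call it, where line 1 is the most significant peak, and the y axis the share of regions per bin of 2000 lines. The outline of the 314 digit I biased regions follows that of the 7736 regions called in 3 to 5 lists, with medians of 31070 and 30710.

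Absence from digits III and V depended on where the lists were ended. In the lists as deposited, which run to between 36194 and 53276 peaks, 299 of the 314 regions had a peak in at least 1 list of digits III and V, where 227 had a call at equal length. The rule allowed at most 1 such list, and in the deposited lists 262 regions had a peak in 2 or more. The gain was concentrated in digit III, where the most lines were added. Its deposited lists run to between 44289 and 53276 peaks, against 36700 to 39937 in digit V. Whether the gain per added line differed between the digits was not tested. Its metacarpal list went from 9 to 176 regions, the hand phalanges from 12 to 129, the metatarsal from 19 to 134 and the foot phalanges from 30 to 213. In digit V the metacarpal list went from 25 to 42, the hand phalanges from 26 to 37, the metatarsal from 34 to 39 and the foot phalanges from 72 to 133. Ending the lists at a common line did not end them at a common significance. At line 36194 the −log10 p-value was 49.2 to 66.8 in digit III lists, 34.3 to 61.1 in digit I lists and 25.3 to 33.1 in digit V lists.

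Other list lengths picked largely other regions. With the first 30000 lines, 250 regions met the digit I rule, and 27 of the 314 overlapped one of them (8.6% of the 314, 10.8% of the 250). With the lists as deposited, 191 regions met it and 52 of the 314 overlapped one (16.6% and 27.2%). At neither of these lengths did 240 of the 314 meet the rule. The same rule turned to digit III found 245 regions at equal length (0.455% of all regions), 234 at 30000 lines and 1492 in the deposited lists, and turned to digit V it found 169 (0.314%), 120 and 34. Digit I thus had the most regions of the 3 digits at equal length and at 30000 lines, and digit III had the most in the lists as deposited. Of the regions chosen at equal length, 83.4% for digit I, 58.4% for digit III and 91.1% for digit V had a peak in 2 or more lists of other digits as deposited.

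**Figure D3:**
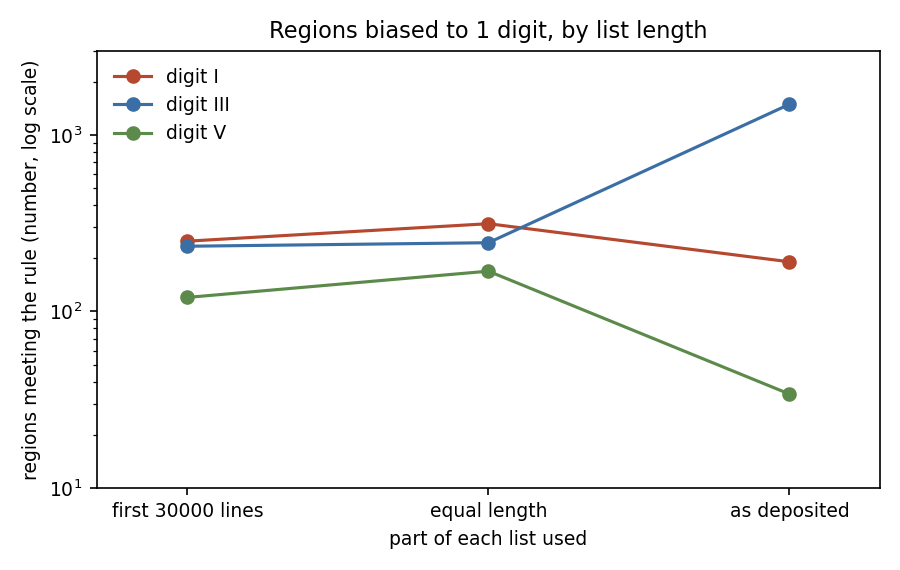
Points give the number of regions (y axis, log scale) called in at least 3 of 4 lists of a digit and at most 1 of the 8 others, for 3 list lengths (x axis). Digit I falls from 314 at equal length to 191 in the deposited lists, while digit III goes from 245 to 1492.

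A small set of 15 regions had no peak in any digit III or V list at the deposited length. These were picked after the peaks had been seen. Col3a1, which encodes a fibrillar collagen of connective tissue, had one inside the gene (chromosome 1, 45345834 to 45349083) at line 18093 of metacarpal I, 23005 of hand phalanges I and 32291 of foot phalanges I. The region near Smad2, a transducer of TGF-beta signals (chromosome 18, 76373948 to 76375676, 63.1 kb away), was at lines 27320, 25396 and 30641 of the same lists, and at 42458 of metatarsal I, past the common length. Gata4, a GATA transcription factor, had one 42.0 kb away (chromosome 14, 63313007 to 63314424) at lines 32595, 26191 and 35638. Others lay near genes of general cell function. Hmgn1, a nucleosome-binding protein, had one inside the gene (chromosome 16, 96121309 to 96122409) at lines 21459, 24039 and 31971 of the metacarpal, hand phalanx and foot phalanx lists.

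The strongest of these by mean line was assigned to St8sia4, a polysialyltransferase (chromosome 1, 95498566 to 95499176, 88.8 kb away), at lines 17342, 19116 and 31324. Hsd17b4, a peroxisomal enzyme, had one inside the gene (chromosome 18, 50134753 to 50135546) at lines 18197, 21981 and 33467. The Tmed6 region (chromosome 8, 107065280 to 107066981) covered the promoter printed above and was at lines 27201, 29937 and 24447. The remaining regions of the set were assigned to Calm2 (calmodulin), Cdh22 (a cadherin), Dab1 (an adaptor of reelin signalling), Lrpprc (a mitochondrial RNA-binding protein), Nsun7, Slc17a5 (a lysosomal sialic acid transporter), Tmcc1 and Zscan2. The set of 15 had 9 regions inside genes and a mean line between 22594 and 33187.

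Each of these 15 regions was called in 3 digit I lists, and most lacked the same element. The regions of Cdh22 and Nsun7 did not, with metatarsal I calls at lines 30410 and 35040. In 13 of them the metatarsal was the digit I element without a call, and in 11 it had no peak in the deposited list either, although that list is the longest of digit I with 46582 peaks. The metatarsal was missing in 34.4% of all regions seen in 3 digit I lists, in 40.7% of the 81 such regions without a call in digits III and V, in 52.9% of the 51 with a peak in at most 1 of those lists as deposited, and in 86.7% of the 15. These sets overlap, and the 15 are part of each, so the shares are not separate observations. The labels name no batch for these libraries.

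**Figure D4:**
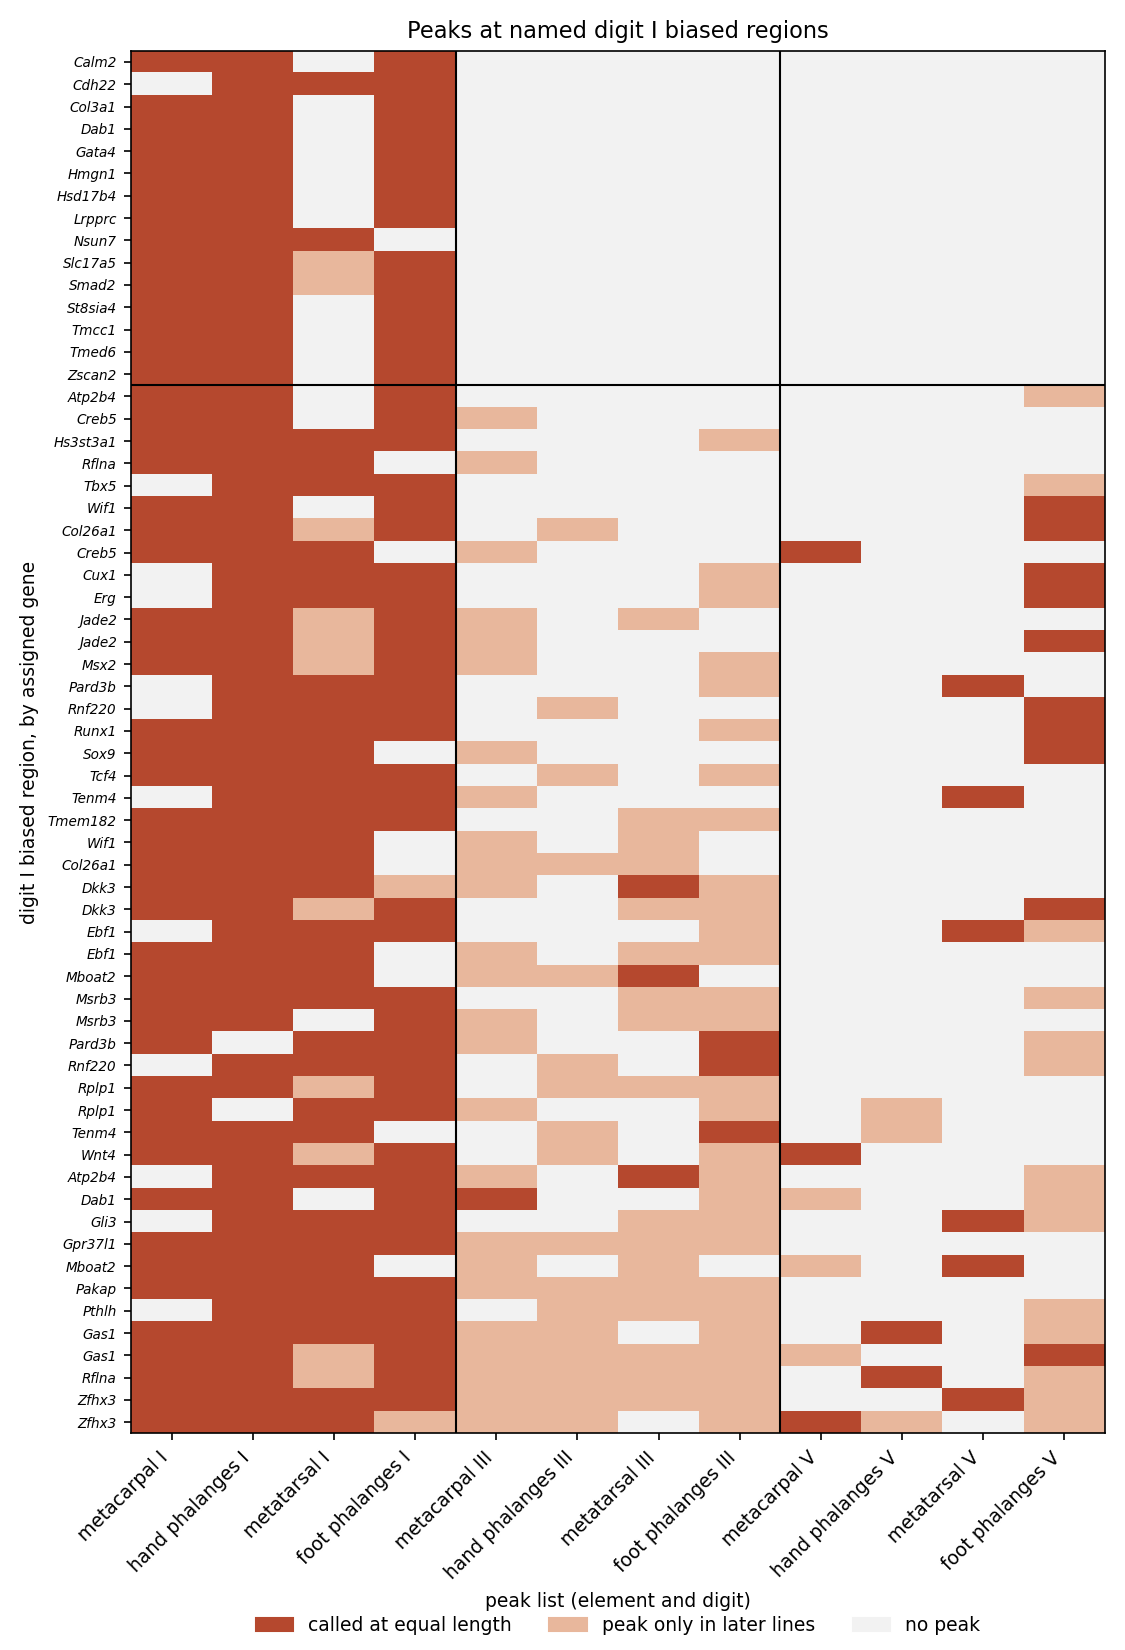
Each row is a digit I biased region, named by its assigned gene, and each column one of the 12 lists, with dark cells for a call within the first 36194 lines, light cells for a peak only in later lines and grey cells for no peak. The 15 regions above the horizontal line have no peak in digits III and V, and 13 of them lack a call in metatarsal I.

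The share of regions at limb patterning genes was near that of all regions. The list of 37 genes for anterior-posterior patterning had 323 regions, of which 2 were digit I biased (0.619%, against 0.583% of all regions). One was assigned to Gli3 (chromosome 13, 15325041 to 15327439, 137.5 kb from the gene end). It was at line 33983 of hand phalanges I, 27068 of metatarsal I and 33350 of foot phalanges I, with a call in metatarsal V at line 25199 that was higher in its list than any of the digit I calls. Later peaks were present in the foot phalanges of digit III (36883) and V (36576) and in metatarsal III (40584). In all, 31 regions were assigned to Gli3, 11 of them in all 12 lists, and the digit I lists had 18 to 23 of them called, the other lists 18 to 23 as well.

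The other was assigned to Msx2, a homeobox gene that responds to BMP in the distal limb (chromosome 13, 53530144 to 53534230, 59.4 kb away). It was at line 34309 of metacarpal I, 22487 of hand phalanges I and 30965 of foot phalanges I, had no call in digits III and V, and had later peaks in metatarsal I (41502), metacarpal III (39513) and foot phalanges III (46005). Of the 14 regions assigned to Msx2, this one included, 9 to 11 were called in each digit I list and 4 to 9 in each other list. The included region was chosen by the same calls. Tbx5, the T-box gene of the forelimb, had a region 37.3 kb away (chromosome 5, 119921650 to 119923386). It was at line 25595 of hand phalanges I, 32830 of metatarsal I and 27119 of foot phalanges I, so both hindlimb elements had it, the metacarpal had no peak, and the only peak of other digits was in foot phalanges V (38123).

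Landmark genes of digit identity mostly had none. No digit I biased region was assigned to Hoxd13, Hoxd12, Hoxd11 or Hoxa13, the posterior Hox genes of the autopod, nor to Alx4, Tbx3, Sall3 or Hand2. Their regions together are too few for the share of 0.583% over all regions to give 1. The absence is therefore no result about these genes. By distance no region at all was assigned to Hoxd13 or Hoxd11, and each had 1 region over the gene itself. Of 13 regions of Tbx3, a T-box gene of the limb margins, 6 to 8 were called in digit I lists and 1 to 8 in the others. Hand2, a regulator of posterior identity, had 7 to 13 of its 16 regions called in digit I lists and 10 to 13 in the others. Alx4 had 1 to 3 of its 7 regions called in digit I lists and 1 to 4 in the others. The ranges overlapped for every one of these genes.

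Among cartilage regulators, Sox9 and Pthlh each had a region. The 19 genes of resting and proliferating chondrocytes had 171 regions, 49 of them in all 12 lists. Of the 171, 2 were digit I biased (1.17%, against 0.583% of all regions). A share that rests on 2 regions was not tested. The Sox9 region (chromosome 11, 112657101 to 112658297, 124.5 kb from the gene end) was at line 31864 of metacarpal I, 29555 of hand phalanges I and 32445 of metatarsal I. It also had a call in foot phalanges V at line 32448 and a later peak in metacarpal III (47626). Pthlh, which encodes PTHrP, the signal that keeps chondrocytes proliferating, had one 11.7 kb away (chromosome 6, 147239761 to 147241035). It was at line 29029 of hand phalanges I, 24287 of metatarsal I and 30376 of foot phalanges I, with no call in other digits and later peaks in 3 digit III lists and in foot phalanges V. Col2a1, the main cartilage collagen, had 2 regions and neither was digit I biased. The list of 15 prehypertrophic and hypertrophic genes had none among 89 regions, too few for a share of 0.583% to give 1.

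Of 297 genes with a digit I biased region, 17 had 2, which held 34 of the 314. These genes had many regions of any kind, from 5 (Jade2) to 53 (Tenm4), against a median of 2 over all genes. How many such pairs the number of regions per gene would give was not computed. A pair is therefore not shown to be particular to digit I. Wif1, a secreted WNT inhibitor, had 2 inside the gene, 383 bases apart. The first (chromosome 10, 121095943 to 121097159) was at line 31837 of metacarpal I, 22474 of hand phalanges I and 33467 of metatarsal I, with later peaks in metacarpal III (52635) and metatarsal III (42728). The second (chromosome 10, 121097543 to 121100491) was at line 34954 of metacarpal I, 19005 of hand phalanges I and 32313 of foot phalanges I, with a call in foot phalanges V at line 26581 and no other peak. Hand phalanges I ranked both highest. Across its 8 regions, these 2 included, Wif1 had 5 to 8 calls in digit I lists and 2 to 7 in the others. The rule chose the 2 by the same calls. With them the means per list were 6.75 in digit I and 4.25 in the others, and without them 5.25 and 4.12.

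Dkk3, a secreted protein of the Dickkopf family, had one region inside the gene (chromosome 7, 112153945 to 112155784) and one 5.5 kb away (chromosome 7, 112163895 to 112165977). The first was at line 34495 of metacarpal I, 32440 of hand phalanges I and 29615 of foot phalanges I, and foot phalanges V held it at line 26521. The second was at line 31199 of metacarpal I, 26800 of hand phalanges I and 33952 of metatarsal I, and metatarsal III held it at line 30001. Each had later peaks in 2 digit III lists. Wnt4, a WNT ligand of the joint, had one region 112.9 kb away (chromosome 4, 137163826 to 137165705), over the start of the predicted gene Gm13003. It was called in metacarpal I, hand phalanges I and foot phalanges I at lines 32033, 34124 and 31622, and in metacarpal V at line 33095. The joint list of 15 genes had 3 such regions among 121 (2.48%, against 0.583% of all regions), assigned to Wnt4, Erg and Cux1. This list, too, is too small for a share of 0.583% to give 1, and the shares were not tested.

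Gas1, a Hedgehog co-receptor, had 2 regions far from the gene. The first (chromosome 13, 60347276 to 60350220, 171.2 kb away) was at line 35416 of metacarpal I, 23885 of hand phalanges I and 31419 of foot phalanges I. The second (chromosome 13, 60367624 to 60370114, 191.3 kb away) was in all 4 digit I lists at lines 33958, 28709, 36062 and 26677 for the metacarpal, hand phalanges, metatarsal and foot phalanges. The first was also called in foot phalanges V at line 30003, further up that list than in metacarpal I or foot phalanges I. The second was also called in hand phalanges V at line 35519. With peaks further down the lists, they had a peak in 6 and 5 of the 8 deposited lists of other digits. Of 27 regions assigned to Gas1, these 2 included, 17 to 22 were called in digit I lists and 11 to 18 in the others. The rule chose the 2 by the same calls, so these ranges are partly set by it.

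Several transcription factors outside the patterning list had regions as well. Runx1, a RUNX factor of blood formation and of early cartilage, had one 19.6 kb away (chromosome 16, 92844816 to 92846616). It was in all 4 digit I lists. The lines were 28937 in the metacarpal, 30270 in the hand phalanges, 33838 in the metatarsal and 24329 in the foot phalanges. Foot phalanges V held it further up its own list, at line 21728. Leaving this region out, 31 others were assigned to Runx1, and 15 to 18 of them were called in each digit I list against 10 to 14 in each other list. Among 275 genes with a digit I biased region and other regions, Runx1 was the only one with no overlap (0.36%). Over all 15854 genes there were 3 (0.0189%). The 275 genes had a median of 6 regions, against 2 for all genes, so these shares are not like for like. This contrast is the one that chose the regions, so it adds no test.

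Erg, an ETS factor of joint cartilage and endothelium, had one 16.4 kb away (chromosome 16, 95601806 to 95604242) at lines 26723, 33550 and 31492 of hand phalanges I, metatarsal I and foot phalanges I, and at 36081 of foot phalanges V. Cux1, a homeodomain factor, had one inside the gene (chromosome 5, 136554938 to 136556895) at lines 33221, 35030 and 31654 of the same 3 lists, and at 30595 of foot phalanges V. Zfhx3, a zinc finger homeobox factor, had 2 inside the gene (chromosome 8, 108775282 to 108778814 and 108884903 to 108888172). The second of these was in all 4 digit I lists, at lines 24484, 24258, 25110 and 33684, and in metatarsal V at line 31929. Both Zfhx3 regions had peaks in 6 of the 8 other lists as deposited, the highest number among the 314, which 9 regions reached. In contrast to these, Creb5, a bZIP factor of articular cartilage, had a region 15.1 kb away (chromosome 6, 53714107 to 53716779) with a single other peak, far down the metacarpal III list (49524), and digit I calls at lines 30894, 28255 and 34730 of the metacarpal, hand phalanges and foot phalanges. Its other region lay inside the gene (chromosome 6, 53637048 to 53639746) and was called in metacarpal V at line 30742. Ebf1, an early B-cell factor also present in mesenchyme, had 2, at 89.8 and 387.0 kb from the gene ends.

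The other genes with 2 regions were Atp2b4 (a plasma membrane calcium pump), Col26a1 (a collagen), Dab1, Jade2, Mboat2 (a lysophospholipid acyltransferase), Msrb3 (a methionine sulfoxide reductase), Pard3b (a cell polarity protein), Rflna (a filamin-binding protein), Rnf220 (a ubiquitin ligase), Rplp1 (a ribosomal protein, with regions 239.5 and 217.9 kb away) and Tenm4 (a teneurin). The 6 regions in all 4 digit I lists and no other were assigned to Msrb3, Gpr37l1, Hs3st3a1 (a heparan sulfate sulfotransferase), Pakap, Tcf4 (a basic helix-loop-helix factor) and Tmem182. The Hs3st3a1 region (chromosome 11, 64315590 to 64317963, 118.6 kb away) was at lines 24532, 24161, 36038 and 36152 of the metacarpal, hand phalanges, metatarsal and foot phalanges, so both hindlimb elements were close to the end of the lines used. Of these 6 it had the fewest other peaks in the deposited lists, with 1 in foot phalanges III (45953), while those of Gpr37l1 and Pakap had peaks in all 4 digit III lists.

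The other lists had 0 or 1 of the regions each, and all are too small for the overall share of 0.583% to give 1. The endothelial list had 1 among 73 regions (Erg, 1.37%), the blood and macrophage list 1 among 60 (Runx1, 1.67%), and the limb identity list 1 among 47 (Tbx5, 2.13%). None was found among 36 regions of tendon and ligament genes, 26 of skeletal muscle, 24 of epidermis, 15 of nerve and Schwann cells, 46 of perichondrium and osteoblasts and 13 of posterior HoxA and HoxD genes. These lists also had regions open in all 12 lists, 22 for endothelium and 16 for blood and macrophages. Whether other cells in the dissections contributed to the digit I regions was not tested. In bulk chromatin, fewer cells with an open region and a weaker opening in every cell cannot be told apart.

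Where the regions lay was not part of the rule. Of the 314, 162 (51.6%) were centred inside a protein-coding gene and 152 between genes, beside 56.6% inside genes for all regions and 48.0% for regions called in 3 to 5 lists. Their centre was within 1 kb of a gene end in 25 cases (8.0%, Wilson 95% interval 5.5 to 11.5%), against 19.3% of all regions and 4.0% (3.6 to 4.5%) of regions called in 3 to 5 lists. For the digit III rule the share was 3.7% (1.9 to 6.8%) and for digit V 4.7% (2.4 to 9.1%). The median distance to a gene end was 16.8 kb for digit I and 17.5 kb for all regions, 43.9 kb for digit III, 29.7 kb for digit V and 33.4 kb for regions in 3 to 5 lists. Digit I biased regions also lay nearer to regions open in every list, at a median of 14.6 kb against 33.0 kb, 38.1 kb and 27.8 kb. These values were compared without a test, and the intervals cover counting error only. Median widths were 2076.5 bp for digit I, 1836 bp for digit III, 1962 bp for digit V and 1959 bp for regions in 3 to 5 lists.

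Some of the regions lay close together. Within 100 kb of another digit I biased region were 40 of the 314, in 20 groups. By the same count there were 10 of 245 for digit III and 19 of 169 for digit V. The sets differ in size, and no such count was made over all regions. Closeness is therefore not shown to be particular to digit I. The largest group, with gaps of at most 500 kb, held 5 regions over 651.5 kb of chromosome 10 (120449039 to 121100491), assigned to Hmga2, Msrb3 and Wif1. The second Msrb3 region (chromosome 10, 120861583 to 120865362) was in all 4 digit I lists, at lines 32846, 31446, 29361 and 32789, and the Hmga2 region (chromosome 10, 120449039 to 120454373) in metacarpal I, hand phalanges I and foot phalanges I at lines 25373, 27213 and 32787. Another group of 3 spanned 266.3 kb of chromosome 5 with regions of Cux1 and Col26a1. By chromosome, the share of regions that were digit I biased was between 0.25% (3 of 1205 on X) and 0.99% (30 of 3017 on chromosome 11), leaving out Y with 0 of 110.

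The few calls in digits III and V were spread unevenly over the 8 lists. The rule used these calls, so they are described without a test. Digit III lists called 17.5 ± 9.33 of the 314 regions (SD, n = 4 lists) and digit V lists 39.25 ± 22.2 (n = 4 lists), and the digit V list was higher in each of the 4 pairs matched by element. In the deposited lists the order turned in all 4 pairs, with 163 ± 39.4 in digit III and 62.75 ± 46.9 in digit V, and the digit III lists are the longer ones. Forelimb lists called 18 ± 8.76 and hindlimb lists 38.75 ± 23.1 (n = 4 lists each), and phalanx lists 35 ± 25.9 and metapodial lists 21.75 ± 10.5 (n = 4 lists each). Hindlimb lists were higher in each of 4 matched pairs, and so were phalanx lists. Foot phalanges V held 72 of the 227 calls (31.7%). Without it, with the regions chosen again (538), the difference of digit III minus digit V was -9.33 regions per list in place of -21.75, and that of forelimb minus hindlimb -32.1 in place of -20.75.

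Regions of the same genes that were not digit I biased were also counted, as a description. The genes were picked by calls in the same lists, and their other regions may include some just outside the rule. A higher rate in digit I may thus be partly set by that choice. Per 1000 called regions, digit I lists held 40.8 to 42.6 of these other regions and the other lists 37.7 to 42.0. Foot phalanges V (42.0) and foot phalanges III (41.3) lay within the range of digit I, and the other 6 lists (37.7 to 39.6) lay below it.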

How the data were processed

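The 36 ATAC-seq libraries were grouped by their titles. Tools listed in the submitters' processing notes, with no role given, are MACS3, Picard 2.9.0 and Bowtie2 2.3.4.1, and the build is mm10. Filters and any shift of cut sites are not given in the sources used here. The authors deposited 1 list per group, called on pooled libraries per the peak names and selected by irreproducible discovery rate per the file names. Per peak, the authors deposited a score, an integer from their peak caller. The authors also deposited a fold enrichment, a linear ratio of the summit over the caller's background, the summit position and the −log10 p-value of the same peak calling. The fold enrichment was compared only within a list. Lines were averaged over lists and set side by side across lists. They give a peak's place in its own list, and the same line stands for different significance in different lists. Peak lists hold no counts per library, so depth and replicate error are unknown, and each SD is the spread between lists.

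Lists were limited to the length of the shortest (36194 lines), merged at 1 bp overlap and called with Python 3.11.15, pandas 2.3.3 and numpy 2.4.6. In simulated lists the code recovered every planted region. Planted regions had no call in digits III and V there, and all others had more such calls than the rule allows. The simulation checks the merging and counting only. Regions were assigned to the nearest end of a protein-coding gene (RefSeq, GRCm38.p6) within 1 Mb of the centre. All 314 regions had a gene. Exons are not told apart.

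Exact permutation tests had been planned over the 8 lists of digits III and V, but the rule used the same calls, so differences between lists are given as descriptions. The regions, gene lists and motifs were chosen with earlier results of these data known. Named were genes with 2 or more regions, genes of 13 lists (171 genes) with a region, regions in all 4 digit I lists alone, up to 10 regions over promoters, of which those of Gm33739, Gm30365, Gm36059, Gm34253 and H2-Aa are values in the closing section, and 12 landmark genes, of which 1 is not reported here. Alternatives were 30000 lines, deposited lists, order by −log10 p-value, 50% cover, 500-bp windows, all 4 digit I lists, autosomes, 2 kb from a gene end and each list left out.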

Additional observations from a re-analysis of the deposited data

Results flagged for a closer look

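The foot phalanges V list stood apart from the other digit V lists. In the deposited lists it had a peak in 133 of the 314 digit I biased regions, while the metacarpal V, hand phalanges V and metatarsal V lists had 42, 37 and 39. These counts include calls that the rule used and come from different elements, so the gap is described without a test. Foot phalanges V is also the longest digit V list, with 39937 peaks against 36700 to 38250 in the others. At equal length it held 72 of the regions, against 25 to 34.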

How the results depend on the processing

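The count of 314 regions was 191 with the lists as deposited, 478 with peaks covering 50% of a region, 38 when all 4 digit I lists were required and 15 when no peak of digits III and V was allowed at the deposited length, an alternative chosen after seeing the data. It stayed within 1.5 times with 30000 lines (250), 500-bp windows (380), autosomes (311) and order by −log10 p-value (314). Leaving out 1 list gave 359 to 1051. The highest counts came without a digit I list (736 to 1051), where 2 of 3 lists sufficed by construction, and counts were 479 without foot phalanges III and 538 without foot phalanges V. The difference of digit III minus digit V lists (-21.75) reversed to 15.25 with regions chosen from the deposited lists and to 100.25 for the same 314 regions with calls from the deposited lists (chosen after seeing the data), in which digit III lists are longer. Leaving out 1 list gave -58 to -9.33 for it, -73 to -15 for forelimb minus hindlimb and -1.25 to 60.5 for phalanges minus metapodials. The element difference turned without foot phalanges I (-1.25). These differences come from calls that the rule used and carry no test. The share within 1 kb of a gene end (8.0%) was 5.3% with all 4 digit I lists, 5.4 to 7.8% without 1 list and 11.8% at 2 kb. No paired analysis was possible because each list pools the 3 libraries of a group, so replicate numbers cannot enter. Lists matched by limb, element or digit are compared in the report by their direction.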

Other observations

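Of the 314 regions, 5 met the rule at 30000 lines, at equal length and in the deposited lists. They sat higher in the lists than most, which meeting the rule at 30000 lines sets in advance. The region near Gxylt1, a xylosyltransferase (chromosome 15, 93234362 to 93234744), was at line 18055 of hand phalanges I, 18908 of metatarsal I and 21540 of foot phalanges I, and at 19033 of hand phalanges III. The one near Tcfl5, a basic helix-loop-helix factor (chromosome 2, 180620939 to 180622162), was at lines 15107, 21502 and 25877 of metacarpal I, hand phalanges I and foot phalanges I, with 1 later peak in foot phalanges V (38008). The others were assigned to Gm46900 (chromosome 5, 5781549 to 5783623), Dab1 (chromosome 4, 103563325 to 103565181) and Tmed6. Metatarsal I was the digit I list without a call in 4 of the 5.

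Further regions covered promoters. The H2-Aa region, at a gene of antigen presentation (chromosome 17, 34287518 to 34288132), was at lines 31077, 27799 and 25850 of metacarpal I, hand phalanges I and foot phalanges I and at 30482 of foot phalanges III. Regions over the predicted starts Gm33739, Gm30365, Gm36059 and Gm34253 were assigned to Foxl1, Lacc1, Rhou and Slc4a1, with peaks in 5, 3, 2 and 2 of the 8 deposited lists of digits III and V.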
